A study of Mus musculus with 2 samples.

Results

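The 7 genes described here are Mir99a, Mir99b and Mir100 (the miR-99/100 family), Mir125a, Mir125b-1 and Mir125b-2 (the miR-125 family), and Gm25927. They were chosen by name from the 1973 microRNA (miRNA) genes in the files, at a time when earlier results of these data were known. Gm25927 stands for let-7e. It is an annotated miRNA gene on the minus strand of chromosome 17 that covers all 93 bases of Mirlet7e on the plus strand. Mirlet7e itself has no count among the 1973 genes, so the reads on the strand opposite to Gm25927 were taken in its place. Both libraries belong to 1 group. They were made from small RNA under 30 nt of kidneys of healthy B6NCrl mouse embryos at 15.5 days, and the labels call them biological replicates. Replicate 1 is a pool from 78 embryos and replicate 2 a pool from 62 embryos, each of both sexes, and no treatment or mutation is labelled in either. No other tissue, age or condition was sampled, so the values are levels in this tissue and differences between its 2 pools.

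The miR-125 genes are the mammalian relatives of lin-4, and let-7, like lin-4, was found in Caenorhabditis elegans, where both set the timing of larval development. In mammals a miR-99/100 gene, a let-7 gene and a miR-125 gene lie in that order in each of several paralogous loci. A miRNA is cut from a hairpin precursor and pairs with messenger RNAs mainly through its seed, which is bases 2 to 8 of the mature strand. Among the best known targets are Mtor and Igf1r for miR-99/100, Lin28a for miR-125, and Lin28a, Lin28b and Hmga2 for let-7.

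The mature 5p strands are shown first, because their letters divide the members into 3 families and show which of them a read can tell apart. They are from RefSeq (GRCm38.p6), 5′ to 3′, with the seed in capitals. All 7 members matched an entry there, Gm25927 through Mirlet7e.
Mir99a, miR-99a-5p: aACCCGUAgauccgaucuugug
Mir100, miR-100-5p: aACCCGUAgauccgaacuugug
Mir99b, miR-99b-5p: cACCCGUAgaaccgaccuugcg
Mir125a, miR-125a-5p: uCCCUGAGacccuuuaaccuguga
Mir125b-1 and Mir125b-2, miR-125b-5p: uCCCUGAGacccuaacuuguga
Mirlet7e, let-7e-5p: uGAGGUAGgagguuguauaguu

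The 3 miR-99/100 strands have 1 seed in common, and so do the miR-125 strands. Counted from 1 at the 5′ end, miR-100-5p differs from miR-99a-5p at 1 of 22 positions, A16U. From miR-99b-5p it differs at 4 positions, A1C, U11A, A16C and U21C. The strand of miR-125a-5p has 24 nt, and over the 22 positions it can be compared at, 15 are the same as in miR-125b-5p, the first 13 among them. The 5p strands of Mir125b-1 and Mir125b-2 are identical. The copies do differ in their 3p strands, shown here with bases 2 to 8 in capitals for the same reason.
Mir125b-1, miR-125b-1-3p: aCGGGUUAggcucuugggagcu
Mir125b-2, miR-125b-2-3p: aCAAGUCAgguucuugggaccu

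These letters bear on the counts, since a read that matches several loci was set apart by the authors' processing and is in no gene's count. Such reads made up 27.1% of all reads in replicate 1 and 26.6% in replicate 2. Among the 2202 miRNA hairpins of GENCODE M21, the hairpins of Mir125b-1 and Mir125b-2 share a run of 24 nt with each other. That run holds the whole 5p strand, so a read of miR-125b-5p alone cannot be assigned to either gene. Both genes are therefore measured only through reads that differ between the copies, and their levels can be too low by an amount the files do not give. The other 5 members share no run of 20 nt with a hairpin elsewhere. Their longest shared runs are 16 nt between Mir99a and Mir100, 11 nt between Mir99b and Mir100, 14 nt between Mir125a and the miR-125b genes, and 17 nt between Mirlet7e and Mir7k. Only annotated miRNA hairpins were compared, not the rest of the genome.

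The members lie in 3 loci of the mm10 (GRCm38) assembly, with positions from GENCODE M21. The Mir99a locus is on chromosome 16, where Mir99a (ENSMUSG00000065530.1) spans 77598936 to 77599000 and Mir125b-2 (ENSMUSG00000065472.1) spans 77646273 to 77646343. Both are in introns of the noncoding host gene Mir99ahg, and Mir125b-2 also overlaps an exon annotated to C130023A14Rik. The Mir100 locus is on chromosome 9, where Mir100 (ENSMUSG00000093011.1) spans 41531425 to 41531504 and Mir125b-1 (ENSMUSG00000093354.1) spans 41581926 to 41582002. Both are intronic to the noncoding gene 3110039I08Rik. Mir125b-1 also overlaps an exon of Gm28119 on its strand, and Mir100 an exon of Gm48742 on the other strand. The Mir99b locus is on chromosome 17. Mir99b (ENSMUSG00000065396.1) spans 17830188 to 17830257 and Mirlet7e 17830352 to 17830444, both in an intron of the protein-coding gene Spaca6. Mir125a (ENSMUSG00000065479.1 in the files) spans 17830812 to 17830879 and overlaps an annotated exon of Spaca6. Gm25927 (ENSMUSG00000092799.1) spans 17830343 to 17830459 on the other strand.

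The distances differ between the loci. Mir125a starts 624 bases after the start of Mir99b, with Mirlet7e at 164 bases. In the Mir99a locus Mirlet7c-1, a let-7 gene, starts 721 bases after Mir99a, while Mir125b-2 starts 47337 bases after it. In the Mir100 locus Mirlet7a-2 starts 5291 bases after Mir100 and Mir125b-1 starts 50501 bases after it. The order is the same in all 3 loci.

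**Figure D1:**
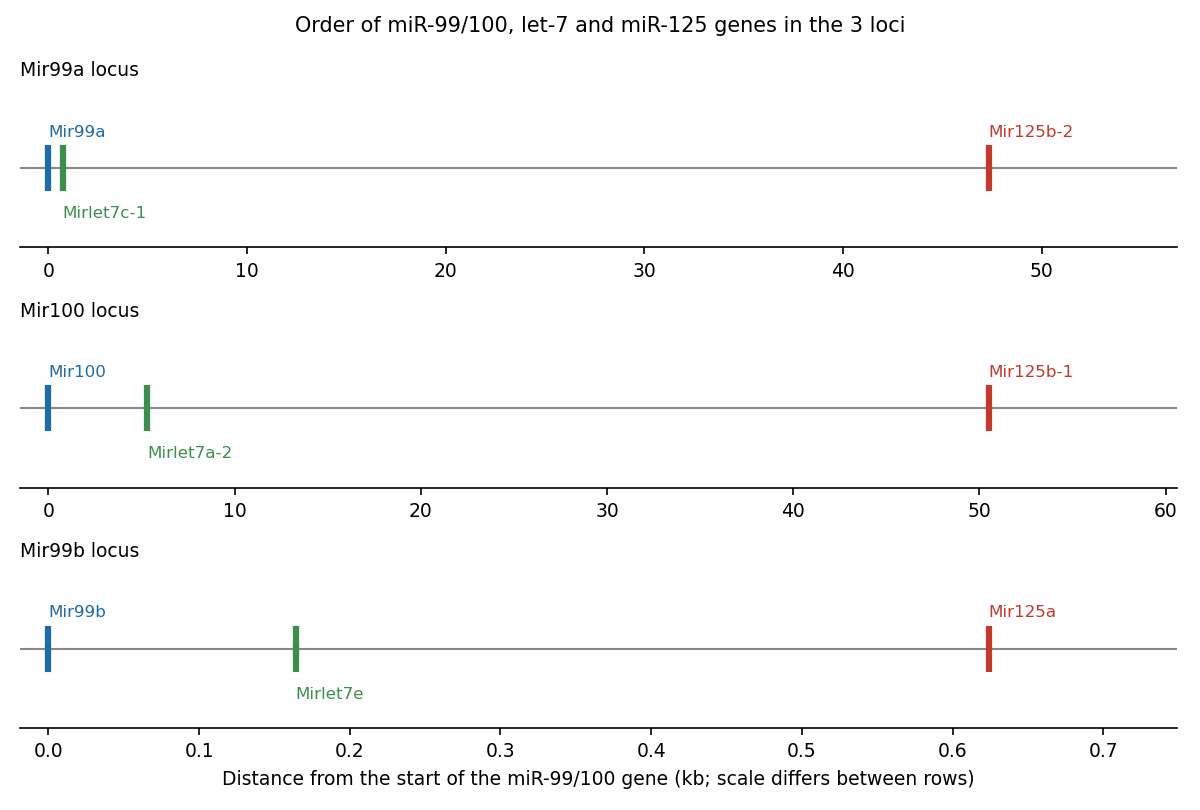
Position of the miR-99/100, let-7 and miR-125 genes in the 3 loci, as distance in kb from the start of the miR-99/100 gene; each row has its own scale. The Mir99b locus spans under 1 kb, while the miR-125b genes lie 47.3 and 50.5 kb from the first gene of their loci.

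The 7 members held 6.87% of own-strand miRNA gene counts in replicate 1 and 7.05% in replicate 2, a mean of 6.96% ± 0.123 (SD, n = 2). The reads taken for let-7e are in the members' sum and not in the total. All 7 passed the minimum mean count of 10. Levels are given as CPM, which is counts scaled to 1000000 own-strand gene reads, of which there were 7434182 and 5863293. A read is a whole small RNA, so levels were not divided by the length of the gene. A count joins the 5p and 3p strands of its hairpin. The libraries are bulk tissue, in which fewer cells of a type and less RNA per cell cannot be told apart.

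The miR-99/100 family made up most of this share. Mir99a, hosted by Mir99ahg, stood at 38236 CPM in replicate 1 and 37621 CPM in replicate 2. The pools differed by a small part of that level, and Mir99a was at rank 8 in both. Ranks are among all 1973 genes by own-strand counts, with the opposite strand for Gm25927 alone. Mir99b stood at 15829.6 and 15531 CPM, at rank 16 by mean, and it too was nearly level between the pools. Mir100 stood at 7316 and 6829 CPM, at rank 25 by mean, with the higher value in replicate 1. The order Mir99a, Mir99b, Mir100 was the same in both pools. Mir99a had 2.42 times the counts of Mir99b in each pool (95% exact binomial interval 2.40 to 2.43 in replicate 1 and 2.40 to 2.44 in replicate 2). Its ratio to Mir100, whose 5p strand differs from its own at the position given above, was 5.23 in replicate 1 (5.18 to 5.27) and 5.51 in replicate 2 (5.45 to 5.57). Together the 3 genes held 89.3% and 85.1% of the members' counts. Intervals here and below cover counting error only.

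Reads of let-7e, taken from the strand opposite to Gm25927, stood at 4448 CPM in replicate 1 and 5890.03 CPM in replicate 2 (33064 and 34535 reads). The value was higher in replicate 2, and by mean it was at rank 32. Other genes were ranked by their own strand even where their reads lay on the opposite one. Gm25301 had 75709 and 53262 opposite-strand reads and 0 of its own. By its opposite strand it would stand above let-7e and Mir100 in both pools. On its own strand Gm25927 had 0 reads in both libraries, and a count of 0 allows up to 3 counts, which is 0.404 CPM in replicate 1 and 0.512 CPM in replicate 2. The other 6 members showed the reverse, with 477988 and 378757 own-strand reads and 0 opposite-strand reads. Counts of the 7 genes thus fell on the plus strand alone at all 3 loci. With let-7e added, the let-7 family of 11 measured genes, Mir98 included, held 13.3% and 14.9% of counts. This share can be too low, since it leaves out reads that match several loci and Mirlet7f-1 was not measured. Let-7e stood below Mirlet7g, which had 53001 and 52914 CPM, and above Mirlet7b, which had 2786 and 3442 CPM.

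In assigned reads, each miR-125 gene was lower than the miR-99/100 gene of its locus. Mir125a, whose mature strand belongs to the lin-4 family, stood at 2301 CPM in replicate 1 and 3865 CPM in replicate 2. This is the widest difference between the pools among the members, and Mir125a was at rank 58 in replicate 1 and rank 42 in replicate 2. Mir125b-1 stood at 317 and 409 CPM, and Mir125b-2 at 296 and 343 CPM. The levels of the miR-125b genes were close to each other, with a ratio of Mir125b-1 to Mir125b-2 of 1.07 in replicate 1 (1.01 to 1.14) and 1.19 in replicate 2 (1.12 to 1.26). Their means, 363 ± 64.8 and 320 ± 33.6 CPM (SD, n = 2 each), differ by less than the SD of Mir125b-1. The ratio of Mir125a to Mir125b-1 was 7.26 in replicate 1 and 9.46 in replicate 2, but reads of the shared miR-125b-5p strand are in neither count of the copies. This order therefore holds for assigned reads only and gives no order between miR-125a and miR-125b.

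**Figure D2:**
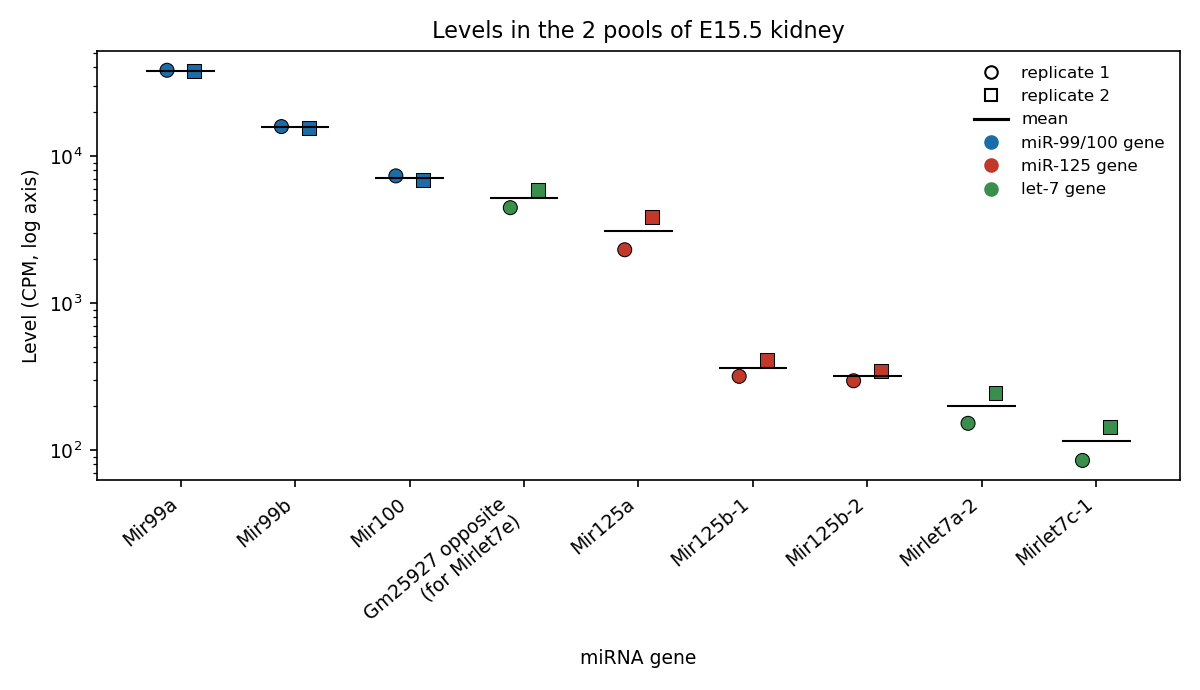
Level in CPM (log axis) of the 7 members and of the let-7 genes Mirlet7a-2 and Mirlet7c-1 in replicate 1 (circles) and replicate 2 (squares), with the mean as a line. The 3 miR-99/100 genes lie at 6829 CPM or more in both pools, the miR-125b genes between 296 and 409 CPM.

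By mean level, the order was Mir99a, Mir99b, Mir100, let-7e, Mir125a, Mir125b-1 and Mir125b-2. Both pools gave this order. Each neighbouring pair differed in mean by more than the SD of either gene, except the miR-125b genes. Among all genes, by the strands used for the ranks, the ones next in level were Mir322 (41009 and 39129.5 CPM) above Mir99a and Mir17 (28081 and 28169 CPM) below it. Mir99b lay between Mir30e at 17235 ± 3754 CPM and Mirlet7d at 15045 ± 2648 CPM, and neither stood apart from it beyond its own SD. Mir100 lay between Mir351 at 7341 ± 2409 CPM and Mir21a at 6719 ± 33.3 CPM. Let-7e lay between Mir744 and Mir423, at 5706 ± 213 and 5114 ± 152 CPM, and Mir125a between Mirlet7b and Mir22, at 3114 ± 464 and 3021 ± 384 CPM. Mir125b-1 lay between Mir501 and Mir671, at 366 ± 53.8 and 347 ± 27.4 CPM. Mir125b-2 lay between Mir669l and Mir186, at 331 ± 28.4 and 316 ± 2.51 CPM (SD, n = 2 each). Likeness of level is all that 2 libraries of 1 group allow.

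Seen by locus in assigned reads, the Mir99a locus led with 3.84% ± 0.0360 of counts, followed by the Mir99b locus with 2.39% ± 0.191 and the Mir100 locus with 0.763% ± 0.0213 (SD, n = 2 each, let-7 gene included). Reads that match several loci, those of miR-125b-5p and let-7c-5p among them, are missing from the Mir99a or Mir100 locus, so this order holds for assigned reads alone. In the Mir99b locus, whose 3 hairpins can each be told apart from the others and from hairpins elsewhere by the 20-nt criterion, Mir99b held 70.1% of the counts in replicate 1 and 61.4% in replicate 2. Let-7e held 19.7% and 23.3%, and Mir125a held 10.2% and 15.3%. The ratio of Mir99b to let-7e was 3.56 in replicate 1 (3.52 to 3.60) and 2.64 in replicate 2 (2.60 to 2.67). Its ratio to Mir125a was 6.88 in replicate 1 (6.77 to 6.99) and 4.02 in replicate 2 (3.96 to 4.08). These ratios do not depend on how the libraries are scaled. Their intervals do not overlap between the pools, but they cover counting error only. The exact binomial test given below, which also covers counting error only, called 55.9% of 379 genes different between the pools. Non-overlap is thus not particular to this locus.

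In the other loci nearly all counts were of the first gene. Mir99a held 99.0% and 98.7% of its locus, Mirlet7c-1 0.220% and 0.378%, and Mir125b-2 0.766% and 0.901%. Mir100 held 93.97% and 91.3% of its locus, Mirlet7a-2 1.95% and 3.29%, and Mir125b-1 4.07% and 5.46%. The let-7c-5p strand occurs in the hairpins of Mirlet7c-1 and Mirlet7c-2, so Mirlet7c-1 has the limit described for the miR-125b genes. No such comparison is given for Mirlet7a-2, so the same limit may hold for it. The make-up of these loci cannot be compared with that of the Mir99b locus for this reason.

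**Figure D3:**
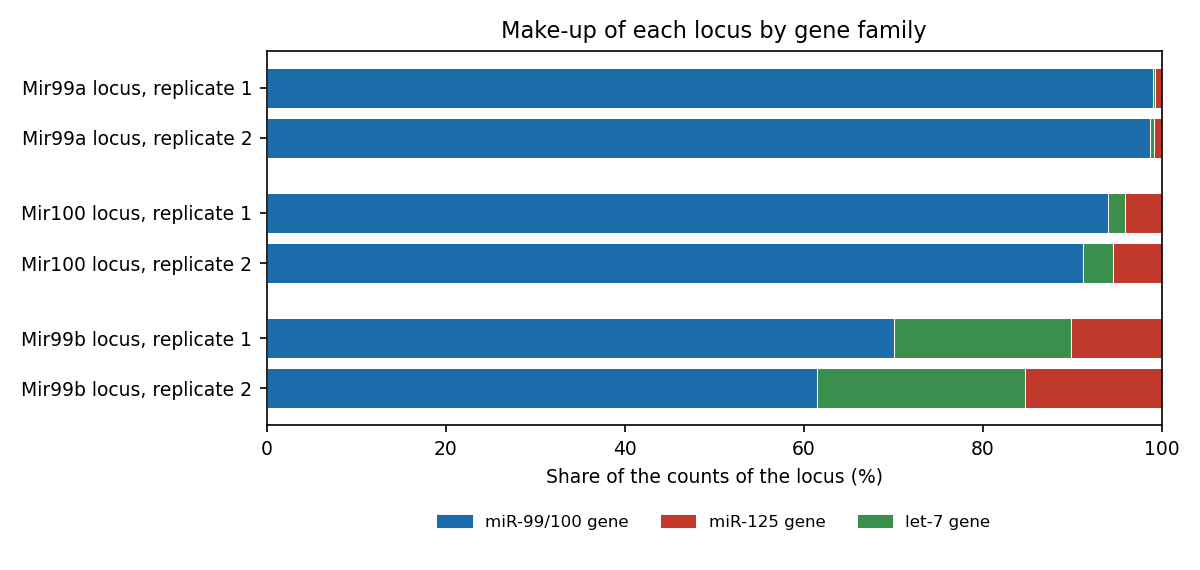
Share of each locus' counts (%) held by its miR-99/100, let-7 and miR-125 gene in each replicate. In the Mir99b locus the miR-99/100 gene held 70.1% and 61.4%, against 91.3% or more in the others, where let-7 and miR-125 reads that match several loci are not counted.

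A seed can be carried by genes outside a family's name, and the RefSeq mature strands were searched for the members' seeds. In that table the miR-99/100 seed was found in the 3 members alone. It differs from that of miR-10, although miR-10a-5p shares a run of 11 nt with miR-100-5p. The genes with the miR-10 seed are Mir10a and Mir10b, and Mir99a stood below Mir10a, which had 4.37 times its counts in replicate 1 and 3.74 times in replicate 2. The miR-125 seed was found in 6 genes. Besides the 3 members these are Mir351, on the X chromosome, and Mir6367 and Mir6394, which had 0 reads in both libraries.
Mir351, miR-351-5p: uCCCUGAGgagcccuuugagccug
Mir10a, miR-10a-5p: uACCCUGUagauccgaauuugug

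Mir351 stood at 5638 CPM in replicate 1 and 9045 CPM in replicate 2. It was above Mir125a in both, at a ratio of 2.45 in replicate 1 (2.41 to 2.49) and 2.34 in replicate 2 (2.30 to 2.38). Of the assigned reads of genes with the miR-125 seed, Mir351 held 65.9% and 66.2%, Mir125a 26.9% and 28.3%, and the miR-125b genes the rest. After base 8, miR-351-5p and miR-125a-5p part, with 10 of 24 positions the same in all. These shares count all strands of each hairpin and leave out reads of miR-125b-5p that match both copies.

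In assigned reads, the miR-99/100 genes were close to level between the pools, while let-7e and the miR-125 genes were lower in replicate 1. Mir125b-1, Mir125b-2 and Mirlet7c-1 were measured only through reads that differ between copies, and the same may hold for Mirlet7a-2. The ratios of these genes therefore do not describe the miR-125 and let-7 families as a whole. On the log2 scale, as replicate 1 over replicate 2, Mir99a stood at 0.02 (95% exact binomial interval 0.02 to 0.03), Mir99b at 0.03 (0.01 to 0.04) and Mir100 at 0.10 (0.08 to 0.12). Mir125a stood at -0.75 (-0.78 to -0.72), let-7e at -0.41 (-0.43 to -0.38), Mir125b-1 at -0.37 (-0.45 to -0.28) and Mir125b-2 at -0.22 (-0.30 to -0.13). The let-7 genes of the other loci were also lower in replicate 1, with Mirlet7c-1 at -0.76 (-0.91 to -0.61) from 632 and 845 reads and Mirlet7a-2 at -0.70 (-0.81 to -0.58) from 1130 and 1443 reads. All 6 let-7 and miR-125 genes of the 3 loci lay below 0 and all 3 miR-99/100 genes above it. Of 265 genes averaging 100 counts or more, 167 (63.02%) lay below 0, and of the 8 let-7 family genes outside these loci 6 did, with Mirlet7g at 0.0024 and Mirlet7f-2 at 0.10 above it.

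**Figure D4:**
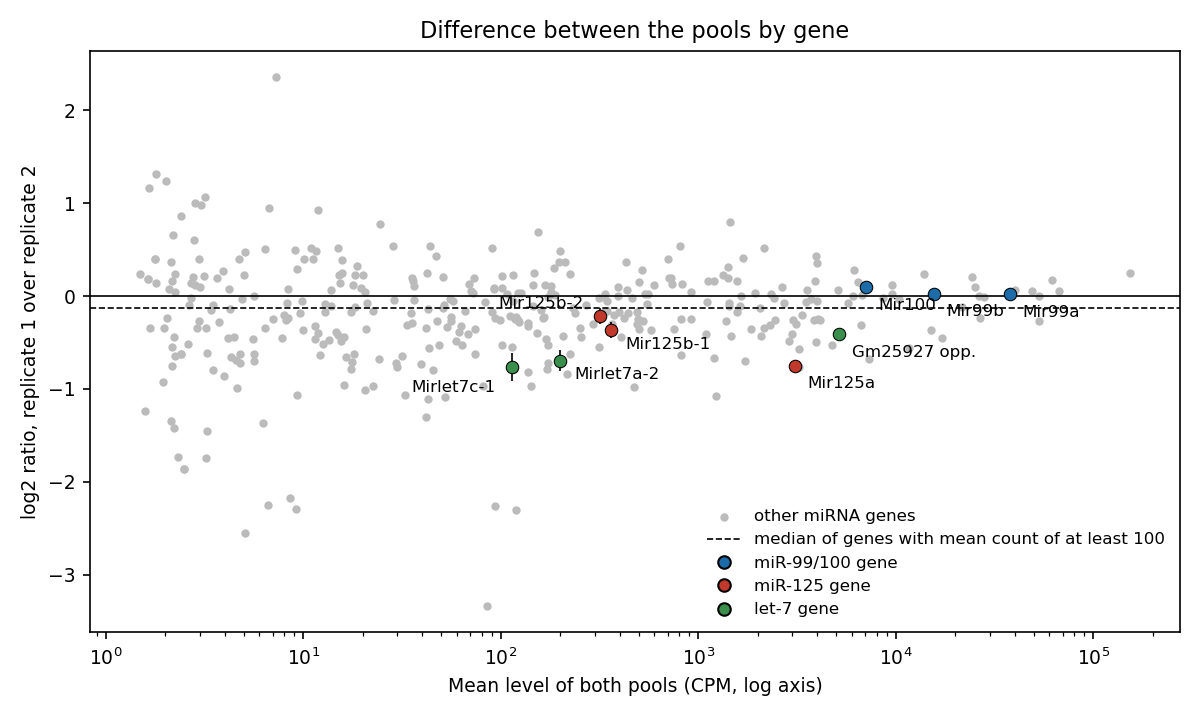
log2 ratio of replicate 1 over replicate 2 against mean level (CPM, log axis) for all genes averaging 10 counts or more; bars on coloured points are 95% exact binomial intervals. The blue miR-99/100 genes lie between 0.02 and 0.10, and the lowest member is Mir125a at -0.75; the dashed line is the median of genes averaging 100 counts or more, at -0.13.

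All 7 members differed between the libraries by an exact binomial test (two-sided, adjusted over 379 genes by the Benjamini-Hochberg procedure), with an adjusted p of at most 4.14e-05. This test compares these libraries and covers counting error only, and it called 55.9% of all genes. Of the members 4 were called lower and 3 higher in replicate 1, against a background of 40.4% of genes called lower and 15.6% called higher. Of the 7 members 0 were called with a difference of at least 2-fold, as were 6.07% of genes. Among 265 genes averaging 100 counts or more, the median log2 ratio was -0.13 and the median absolute one 0.25. Mir125a lay lower than all but 23 of them, and 25 had a larger absolute ratio. Relative to the median gene, Mir99a, Mir99b and Mir100 stood at 0.15, 0.16 and 0.23 and Mir125a at -0.62. Let-7e stood at -0.27, Mir125b-1 at -0.23 and Mir125b-2 at -0.08. The directions were the same with the scalings of edgeR (TMM) and DESeq2, which added 0.13 and 0.16 to each log2 ratio. The call of Mir125b-2 was lost with both, at -0.09 (adjusted p = 0.0843, exact binomial test) and -0.05 (adjusted p = 0.303, exact binomial test).

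Markers of the tissue and of other cell types were present, and some of them differed little between the pools. All 8 epithelial genes listed were detected in both libraries. The 5 miR-200 genes among them summed to 24821 and 21319.8 CPM in replicates 1 and 2, and the 3 miR-30 genes listed (Mir30a, Mir30d and Mir30e) to 27296 and 38403 CPM. All 5 genes known from adult kidney were detected too, with 516 and 366 CPM in sum. The endothelial Mir126a stood at 49708 and 47805 CPM, the 2 smooth muscle genes at 24953 and 29366 CPM and the endocrine Mir375 at 1243 and 1677 CPM. The hepatocyte gene Mir122 stood at 319 and 628 CPM, the 2 erythroid genes at 339 and 466 CPM and the 3 leukocyte genes at 619 and 700.1 CPM. The 3 skeletal muscle genes summed to 971 and 661 CPM, with Mir1a-1 at 0. The 3 neural genes summed to 126 and 218 CPM, all of it from Mir137, with Mir124a-1 and Mir9-2 at 0. No comparison of shared sequence is given for the marker genes. Reads without a unique place in the genome went uncounted, so a 0 here does not show that the miRNA was absent. As log2 ratios of replicate 1 over replicate 2, the epithelial list lay at -0.20. Its miR-200 genes lay at 0.22 and its miR-30 genes at -0.49. The adult kidney list lay at 0.49. The epithelial, endothelial (0.06), leukocyte (-0.18) and smooth muscle (-0.23) lists were within the median absolute ratio of 0.25 given above. The adult kidney, hepatocyte (-0.98), neural (-0.79), skeletal muscle (0.55), erythroid (-0.46) and endocrine (-0.43) lists and the listed miR-30 genes were beyond it. The part of these cell types in the differences between the pools was not tested.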

How the data were processed

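Small RNA from total RNA of 2 kidney pools was sequenced. The authors deposited raw counts for each miRNA gene in 3 columns: strand disregarded, own strand and opposite strand. Reads were aligned to mm10 and assigned with GENCODE M4, per text notes that the authors deposited. For the aligner and counter, the name is not given in the sources used here. Unmapped reads, reads matching several loci and reads in no gene have their own lines and were left out of totals. The strand of the columns was read from the values.

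Own-strand counts were used, and opposite-strand counts for Gm25927. CPM and percent are over the own-strand sum. Names came from GENCODE M21 by identifier without version, for 1894 of 1973 genes, and sequences from RefSeq. Hairpins were called sharing when they had 20 nt in common. Genes averaging 10 counts or more entered the exact binomial test given library totals. The test was tried on simulated data that held counting error only, so that trial says nothing about variation between pools. The members, lists and comparisons were chosen with earlier results of these data known. Named genes are the members, the let-7 genes, Mir10a and Mir10b, the genes next in mean level, and the marker lists. Seed carriers were added after values were seen. Alternatives were other scalings, strands, totals, filters, folds, pseudocounts, stretch lengths, locus widths and each replicate left out. Python 3.11.15 (scipy 1.17.1, pandas 2.3.3, numpy 2.4.6, matplotlib 3.10.9) and R 4.3.3 (edgeR 4.0.16 and DESeq2 1.42.0, for scaling factors only) were used.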

Additional observations from a re-analysis of the deposited data

How the results depend on the processing

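The members' summed share of 6.96% was 6.81% with strand disregarded, and also with opposite-strand counts added to the total. It was 8.23% with Mir10a taken out of the total and 6.44% without Gm25927. These changes follow from the totals and members used. The other scalings and leaving out the genes that share 20 nt moved it by less than the SD. The single replicates gave 6.87% and 7.05%. With 2 libraries each value lies within the SD of their mean by arithmetic, so leaving out a replicate is no check here. The count of members differing between the libraries was 6 instead of 7 with either scaling and 0 with a fold of at least 2. The Mir100 locus held 0.727% when genes over 10 kb away were left out, and the share of the Mir99a locus moved by less than its SD. The Mir99b locus has no gene that far away, so its share could not move. The same 2 members shared sequence at 18 and at 22 nt. Of 14 log2 ratios of single members tested again under another scaling, 12 kept their direction and side of the threshold and 2, both of Mir125b-2, kept the direction alone. The 7 recomputed with a pseudocount, with no test, kept their direction. No paired analysis was possible because the samples form 1 group. With 2 libraries the SD is itself uncertain, and counting error is widest for the miR-125b genes.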
